A study of Homo sapiens with 346 samples.

Results

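The genes described here are the cytosolic ribosomal protein genes, which encode the protein parts of the ribosome outside mitochondria. A gene was taken as a member when its symbol in either gene table was RPL or RPS followed by a number, with at most a final letter or copy number, or was RPLP0, RPLP1, RPLP2 or RPSA. Y-linked genes and pseudogenes were left out. This gave 84 members of 31463 listed genes, of which 52 belonged to the large subunit (RPL) and 32 to the small subunit (RPS). The 84 included 7 paralogs, which encode a protein closely related to that of another member (RPL3L, RPL7L1, RPL10L, RPL22L1, RPL26L1, RPL39L and RPS27L). The other 77 members, 46 large and 31 small, had a value above 0 in every cell of every group.

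A ribosome holds 1 copy of most of these proteins, so a dividing cell needs them in matched amounts and makes a large share of its mRNA for them. Most of their mRNAs begin with a C followed by an uninterrupted run of pyrimidines, the 5′ terminal oligopyrimidine (TOP) tract, through which their translation is controlled together. Several members have a role beside the ribosome body: RPLP0, RPLP1 and RPLP2 form the stalk that recruits elongation factors, and RPL5 and RPL11 form with the smallest large-subunit RNA a particle that binds MDM2.

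Full-length cDNA was sequenced from single cells of 2 human lines, HCT-116, a colorectal carcinoma line, and a line labelled HepG2, a liver cancer line. Cells were either processed live or first fixed in 80% methanol and kept frozen for 1 week. Of HCT-116 the tables held 91 columns of live and 92 of fixed cells, and of the HepG2-labelled line 68 live and 83 fixed. The labels name no other treatment or genotype. Each line and treatment was 1 sample without a named culture, so cells are not replicates of a condition, no test was made, and the SDs given are spreads over cells. By the study's methods the HepG2 work was done in 2 experiments and the HCT-116 work in 1, and the labels do not say which HepG2-labelled cell came from which, so their spreads may include a difference between experiments. Live and fixed libraries were made separately, and treatment and library preparation cannot be told apart.

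Total reads per cell were estimated at 0.2 to 5.3 M, with group medians of 1.8 to 2.5 M. Ribosomal RNA took 255550 TPM (length-corrected transcript abundance as a share of the cell's total) on average in live HCT-116 cells against 77850 in fixed ones, and 55251 against 23344 in the HepG2-labelled cells, which moves every other TPM value in the opposite direction. Values are therefore given on the deposited TPM scale, on TPM rescaled without ribosomal RNA, and as a member's share of the summed TPM of all 84 members (the pool), which does not depend on the scaling of a cell. Of 17 hepatocyte markers, 9 were listed and 0 exceeded 1 TPM in at least 50% of the live or fixed HepG2-labelled cells, with summed levels of 0 to 35.9 TPM live and 0 to 89.7 TPM fixed. Of 12 luminal breast markers, 11 passed that level there, ESR1, GATA3 and FOXA1 among them. In HCT-116 4 passed, XBP1, KRT8, KRT18 and KRT19. The summed level of the list was 5124 to 64289 TPM in live HepG2-labelled cells and 1282 to 10313 TPM in live HCT-116 cells. KRT8, which passed in both lines, had the highest mean, 11421 and 1902 TPM in these groups, so the sum says little about breast identity. The markers thus go against the label, and the line is called by its label only as a name. One live and one fixed HepG2-labelled column held identical values, and 6 fixed columns correlated above 0.95 with another column.

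The start of a transcript carries the TOP tract, so the sequences around the RefSeq start are shown for 4 members of contrasting level and 3 of the paralogs. Each run holds the 15 bases before and the first 15 bases of the annotated transcript (GRCh38.p14), written 5′ to 3′ on the gene's strand, and capitals mark an uninterrupted run of C and T of at least 5 bases that begins with a C at the start itself.
RPL41 (chr12:56116618-56116647, plus strand): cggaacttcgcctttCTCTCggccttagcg
RPS27 (chr1:153990747-153990776, plus strand): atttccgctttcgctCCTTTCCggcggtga
RPL26 (chr17:8383179-8383208, minus strand): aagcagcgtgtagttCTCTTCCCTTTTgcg
RPL22 (chr1:6199581-6199610, minus strand): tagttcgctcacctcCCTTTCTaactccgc
RPL22L1 (chr3:170870181-170870210, minus strand): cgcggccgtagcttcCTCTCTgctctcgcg
RPL26L1 (chr5:172958714-172958743, plus strand): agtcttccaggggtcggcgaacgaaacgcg
RPS27L (chr15:63157463-63157492, minus strand): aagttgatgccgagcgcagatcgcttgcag

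RPL41 and RPS27, the most abundant members, and RPL22, the least abundant, all began with such a tract. Among the paralogs shown, RPL22L1 kept it, whereas RPL26L1 and RPS27L did not. Promoter sequence was matched for 62 of the 77 members without paralogs, and 42 of these (67.7%) had the tract, 25 of 38 in the large and 17 of 24 in the small subunit. The same letters began 4.04% of all 27305 reference promoters, 8.70% of 655 other genes at a mean of 100 TPM or more, 7.25% of 69 mitochondrial ribosomal protein genes and 1 of 5 matched paralogs. Members with the tract had a median level of 1734 TPM over the group means and those without it 1322 TPM. The fixed-to-live log2 ratios of the 2 sets had medians of 0.44 and 0.41 in HCT-116 and 0.38 and 0.40 in the HepG2-labelled cells. The annotated start is a single position per gene, so the absence of these letters says only that they are not in this window.

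Mean levels of the 77 members ran from 130.7 TPM (RPL22) to 4552 TPM (RPL41) in live HCT-116 cells. The span was wider in live HepG2-labelled cells, from 61.7 TPM (RPL22) to 6383 TPM (RPS27). RPL41, a very short basic protein of the large subunit, was the most abundant over the group means, followed by RPS27, RPLP1, RPS18 and RPL37A. RPL41 ranged from 2657 to 7412 TPM over live HCT-116 cells (median 4501) and from 1658 to 9652 TPM over fixed ones (median 6199). In HepG2-labelled cells it ranged from 2274 to 7365 TPM live (median 4992) and from 3310 to 16016 TPM fixed (median 6980). At the other end stood RPL22, RPL27A, RPL28, RPS23 and RPL37. RPL22, an RNA-binding protein of the large subunit, had a median of 126.8 TPM live and 190 TPM fixed in HCT-116, against 58.9 TPM live and 84.1 TPM fixed in the HepG2-labelled line.

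**Figure D1:**
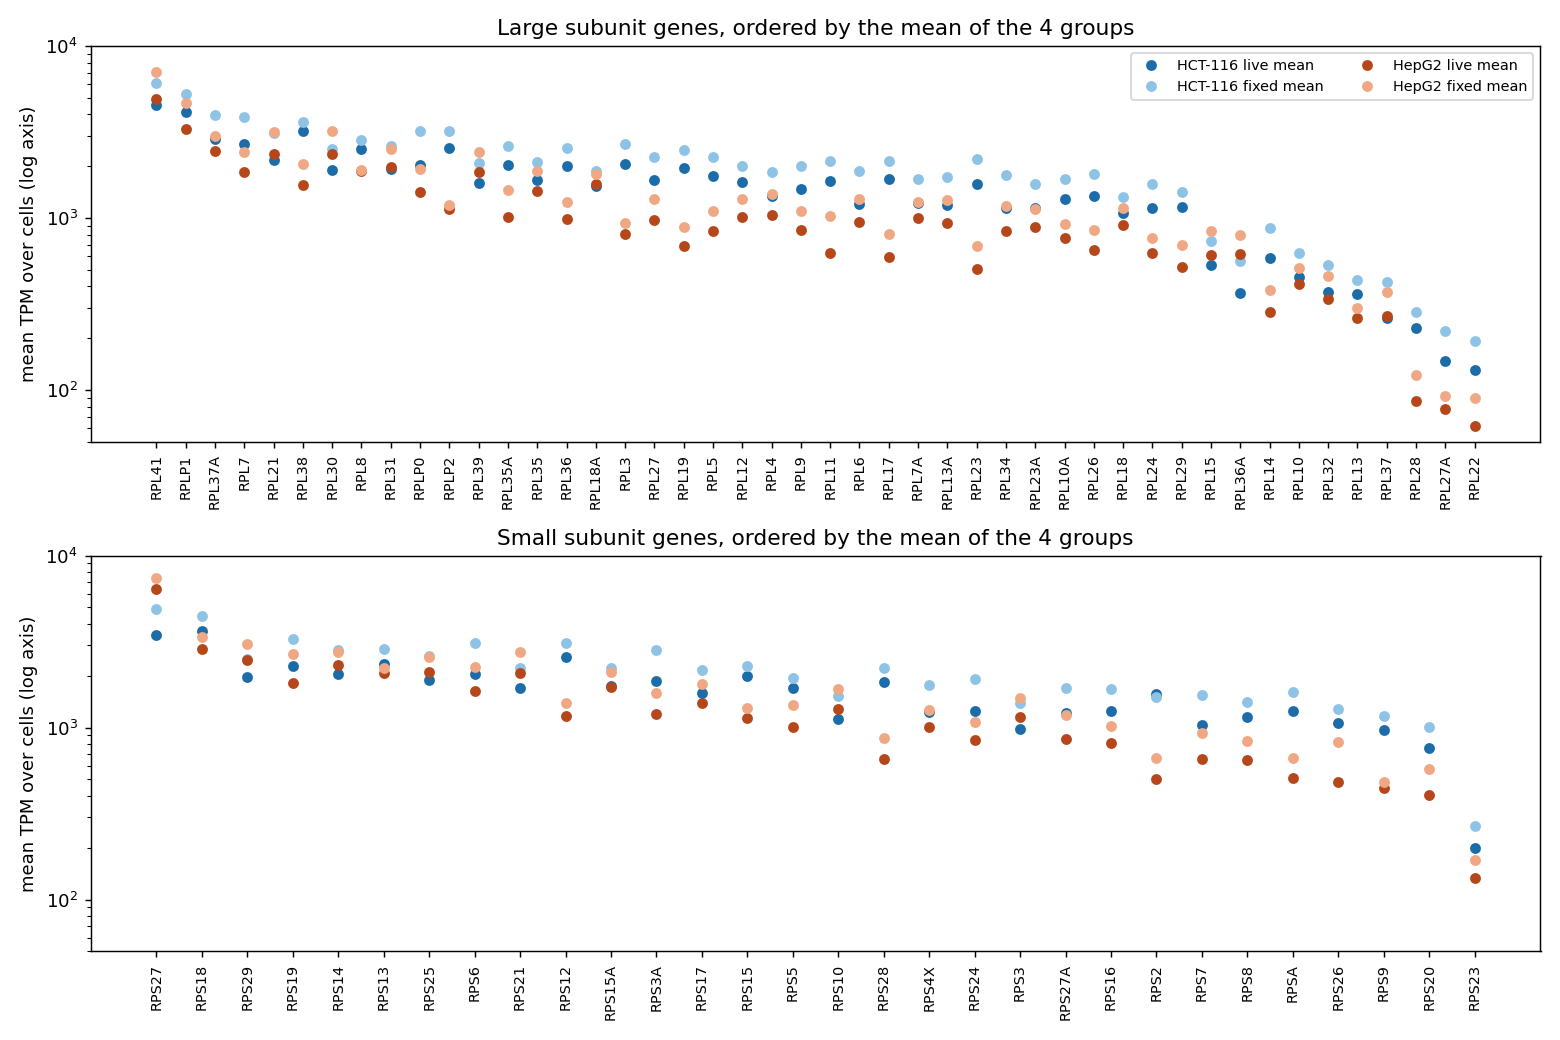
Mean TPM over cells (log axis) of 76 of the 77 members without paralogs in the 4 groups, the large subunit above and the small subunit below, ordered by the mean of the group means. RPL41 and RPS27 lead the 2 subunits, and RPL28, RPL27A, RPL22 and RPS23 lie lowest.

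The order by TPM differed from the order by reads. The second deposited table gives CPM (estimated counts scaled to the cell's total) for each transcript, which are not divided by length, and the summed CPM of a member over its gene TPM follows the length the quantification assigned to it. In live HCT-116 cells this ratio spanned from 0.122 for RPS27 to 3.63 for RPL27A, a 29.8-fold span. RPS27 was rank 4 of 77 by TPM and rank 53 by CPM, and RPL27A was rank 76 by TPM and rank 36 by CPM. RPL13 was rank 72 by TPM and rank 6 by CPM. Across the 77 members the Spearman correlation of level in TPM with level in CPM was 0.34 live and 0.36 fixed in HCT-116, and 0.52 and 0.55 in the HepG2-labelled cells. Comparisons of 1 member between groups do not rest on this order, but the ratio of CPM to TPM also differed between groups. In fixed HCT-116 cells it was 0.151 for RPS27 and 3.96 for RPL27A, so it did not change equally for all members. RPS27 had means of 3447 TPM live and 4857 TPM fixed in HCT-116, and of 420 CPM live and 735 CPM fixed. The size of a difference between groups can thus depend on the scale.

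The summed level of the members was higher in fixed than in live cells of both lines. In live HCT-116 cells the pool ranged from 90079 to 179761 TPM (median 123469), and in fixed ones from 32344 to 226415 TPM (median 163091). In HepG2-labelled cells it ranged from 59218 to 150491 TPM live (median 93760) and from 62547 to 210984 TPM fixed (median 121779). Live and fixed cells overlapped in both lines, although 89 of 92 fixed HCT-116 cells and 76 of 83 fixed HepG2-labelled cells lay above the median of the live cells. The means were 122775 ± 14531 and 162151 ± 25617 TPM (SD over 91 and 92 cells), a log2 ratio of 0.40, in HCT-116 and 94026 ± 16263 and 120852 ± 22264 TPM (68 and 83 cells), a log2 ratio of 0.36, in the HepG2-labelled cells.

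Part of this difference moved with ribosomal RNA and with the TPM of genes not listed. Listed genes summed to a mean of 993131 TPM live and 990432 fixed in HCT-116, and 880241 and 954586 in the HepG2-labelled cells. The scale without ribosomal RNA is taken over the listed genes, so in the HepG2-labelled cells it also takes up this change. The 2 parts were not separated. As a percent of the TPM outside ribosomal RNA, the pool was 16.7 ± 2.01 live and 17.8 ± 2.89 fixed in HCT-116, and 11.4 ± 2.18 and 13.02 ± 2.65 in the HepG2-labelled cells, so that the log2 ratios fell to 0.09 and 0.19. On this scale 62 of 92 fixed HCT-116 cells and 68 of 83 fixed HepG2-labelled cells lay above the live median. The rescaling moved the median log2 ratio of all genes compared from 0.16 to -0.18 in HCT-116 and from 0.14 to -0.05 in the HepG2-labelled cells. Relative to that median the 77 members stood 0.26 higher on the deposited scale and 0.29 higher without ribosomal RNA in HCT-116, and 0.24 and 0.26 higher in the HepG2-labelled cells.

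**Figure D2:**
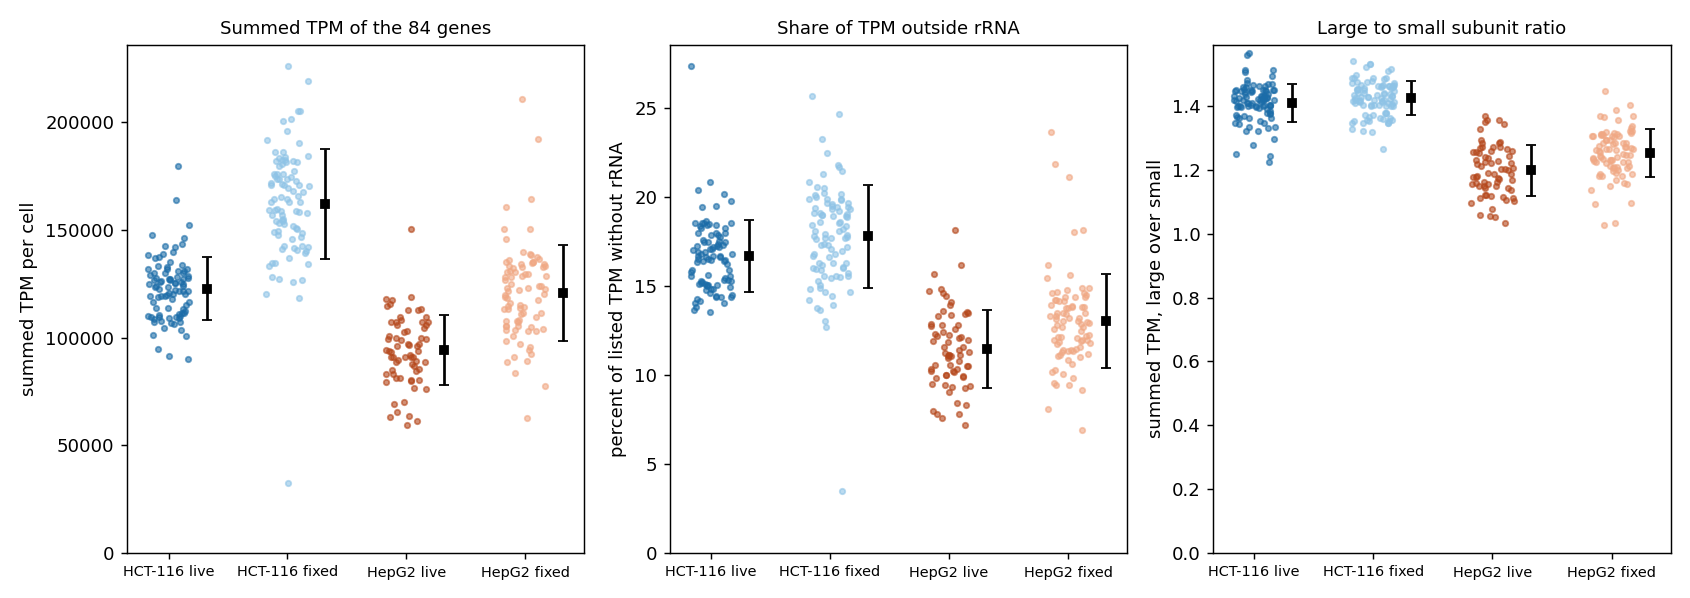
Each point is 1 cell, and black squares with bars are the mean and SD over cells of a group. The panels show the summed TPM of the 84 genes, that sum as a percent of the TPM outside ribosomal RNA, and the summed large over the summed small subunit TPM, whose mean is 1.41 and 1.43 in live and fixed HCT-116 cells and 1.199 and 1.25 in live and fixed HepG2-labelled cells.

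Nearly all members took part. In HCT-116, 80 of the 81 members compared had a higher mean TPM in fixed cells, against 60.4% of all genes compared, and 81 of 82 did in the HepG2-labelled cells, against 58.8%. Genes were compared when their mean reached 1 TPM in either group. By at least 1.5-fold, 10 members were higher and 0 lower in fixed HCT-116 cells (all genes: 13.3% higher and 17.8% lower), and 3 were higher and 0 lower in fixed HepG2-labelled cells (16.5% and 19.4%). The members were abundant, and abundant genes as a class were higher in fixed cells: among genes whose 2 group means averaged 100 TPM or more, members included, 87.8% were higher in HCT-116 and as many in the HepG2-labelled line. The median log2 ratio was 0.43 for the 77 members and 0.33 for 957 non-members at 100 TPM or more in at least 1 group in HCT-116, and 0.38 against 0.37 for 976 such genes in the HepG2-labelled cells. Of these non-members 85.8% and 86.2% were higher. The 2 medians in the HepG2-labelled cells thus differed by less than those in HCT-116. Without ribosomal RNA, 62 of 81 members were higher in fixed HCT-116 cells (34.9% of all genes). In fixed HepG2-labelled cells 76 of 82 were higher (46.6%). Among genes whose 2 group means averaged 100 TPM or more on that scale, 53.7% and 76.1% were higher. The 77 members had a median log2 ratio of 0.12 in HCT-116, against 0.002 for non-members at 100 TPM or more. In the HepG2-labelled cells these medians were 0.205 and 0.195. On that scale 0 members were 1.5-fold higher or lower in HCT-116 (all genes: 4.62% higher and 29% lower), and 2 were higher and 0 lower in the HepG2-labelled cells (10.2% and 25.1%).

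The members with the highest fixed-to-live ratios were not the same in both lines. In HCT-116 they were RPL37, RPLP0, RPL34, RPL6 and RPS24. RPL37, a zinc-binding protein of the large subunit, ranged from 164.6 to 550 TPM live (median 251) and from 106.3 to 847 TPM fixed (median 427), a log2 ratio of means of 0.70. The ranges overlapped, with 87 of 92 fixed cells above the live median. In HepG2-labelled cells the highest were RPS27L, RPS26, RPL11, RPS19 and RPL22. RPS26, which lies near the mRNA exit of the small subunit, ranged from 180 to 842 TPM live (median 485) and from 320 to 1601 TPM fixed (median 786), a log2 ratio of 0.77, against 0.29 in HCT-116.

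RPL5 and RPL11, the pair that binds MDM2, had nearly equal ratios in HCT-116, with log2 values of 0.38 and 0.39. In HepG2-labelled cells RPL5 again had 0.39, while RPL11 had 0.73, from a live range of 98.8 to 1189 TPM (median 580) to a fixed range of 364 to 1809 TPM (median 1059). Both were lower in live HepG2-labelled than in live HCT-116 cells, with log2 ratios of -1.06 and -1.39. In the stalk, RPLP0 had 0.65 and RPLP2 0.33 in HCT-116, and RPLP0 had 0.46 and RPLP2 0.08 in the HepG2-labelled cells. RPLP1 had 0.34 in HCT-116 and 0.50 in HepG2-labelled cells, so the 3 stalk genes stood in a different order in each line.

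At the low end, RPS2, a protein of the small subunit near the mRNA entry, was the only one of the 81 members compared with a lower mean in fixed than in live HCT-116 cells on the deposited scale. It ranged from 877 to 2853 TPM live (median 1556) and from 176.4 to 2428 TPM fixed (median 1477), a log2 ratio of -0.07. Its share of the pool was 1.29% ± 0.27 live and 0.929% ± 0.18 fixed in HCT-116, a log2 ratio of -0.47, and 0.556% ± 0.26 and 0.547% ± 0.15 in the HepG2-labelled cells, a log2 ratio of -0.02. RPL8, a large-subunit protein that contacts the peptidyl transferase center, had low ratios in both lines, with log2 values of 0.17 in HCT-116 and 0.02 in HepG2-labelled cells. RPL7L1 was low in both as well in TPM, with 0.15 and 0.05. Its mean CPM was 20.2 live and 31.4 fixed in HCT-116, and 15.2 and 18.2 in the HepG2-labelled cells.

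The composition of the pool changed little with fixation. Among the 77 members without paralogs, the share of the pool was within 1.5-fold between live and fixed cells for all 77 in both lines, and within 1.2-fold for 75 in HCT-116 and 72 in the HepG2-labelled cells. Of all members compared, 0 of 81 changed their share by at least 1.5-fold in HCT-116 and 1 of 82, RPS27L, in the HepG2-labelled cells. Measured against the pool in the same way, 33.7% of all genes and 7.09% of genes at 100 TPM or more passed that size in HCT-116, and 36.6% and 8.82% in the HepG2-labelled cells. By direction, 4.6% of all genes were higher and 29.1% lower relative to the pool in HCT-116, and 6.61% and 30% in the HepG2-labelled cells. Other genes carry the change of the pool itself in these rates, whereas members are divided by their own sum. The rates are thus not a like measure for the members, and abundant genes are only nearer to them in level.

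**Figure D3:**
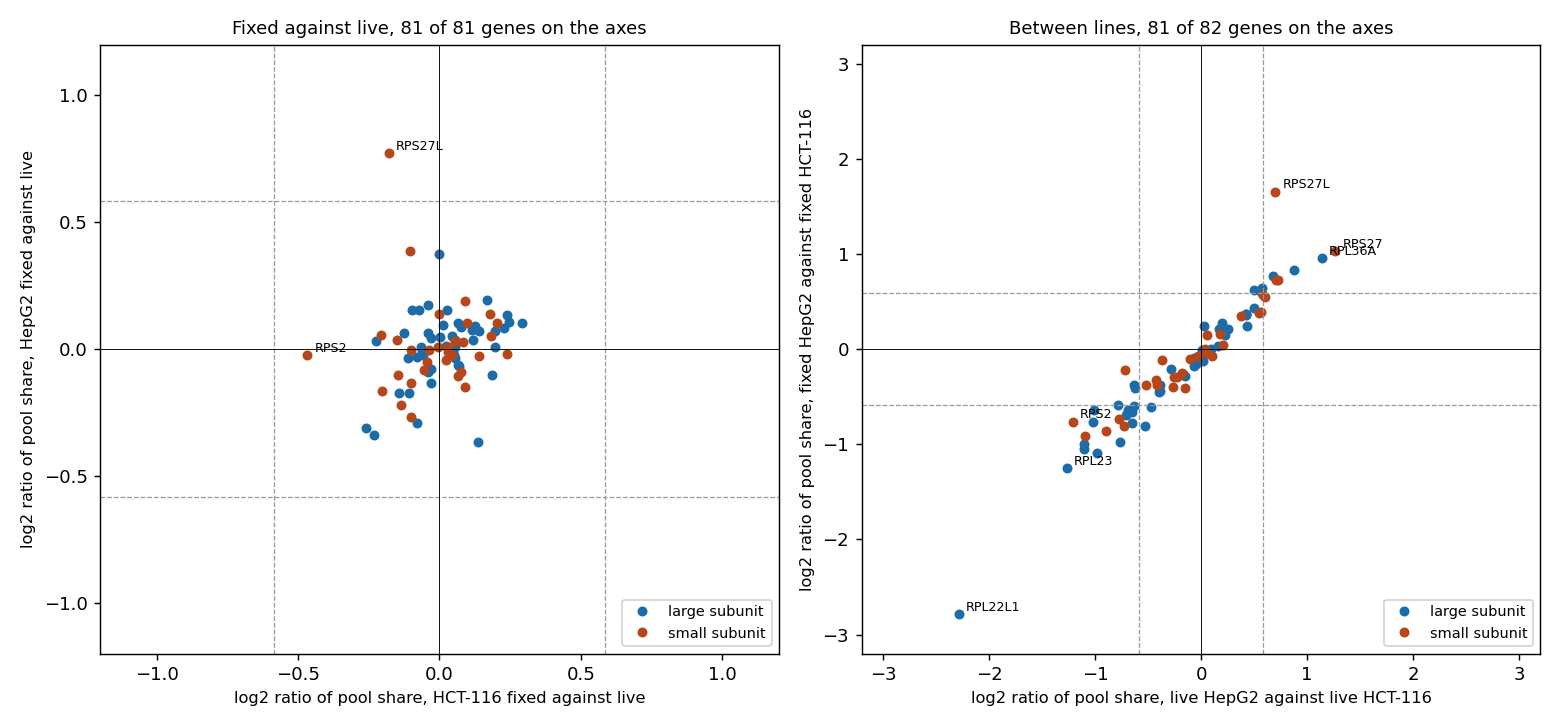
Log2 ratio of each member's share of the pool, fixed against live on the left (HCT-116 on the x axis, HepG2 on the y axis) and between lines on the right (live cells on the x axis, fixed cells on the y axis), for members at a mean of 10 TPM or more, with dashed lines at 1.5-fold. On the left only RPS27L passes a dashed line, in HepG2-labelled cells, while on the right the points spread along the diagonal from RPL22L1 to RPS27L, and RPL39L lies beyond the axes.

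GC content of the mRNA varied with the fixed-to-live ratio among the members. Over the 77 members, whose GC content was 40.1% to 63.6% in the GENCODE v44 reference transcripts, the Spearman correlation of GC content with the log2 ratio was -0.61 in HCT-116 and -0.34 in HepG2-labelled cells. Over 873 and 894 other genes at 100 TPM or more it was -0.45 and -0.16. The reference transcript need not be the one quantified: that of RPL14 has 7136 bases and that of RPS27A 785, while their CPM over TPM in live HCT-116 cells was 0.503 and 0.590. These are correlations across genes of the same libraries, and genes are not independent replicates.

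The 2 lines differed more than live and fixed cells did. On the deposited scale 20 members were higher and 62 lower in live HepG2-labelled than in live HCT-116 cells, against 53.8% of all genes higher and 46.2% lower, and by at least 1.5-fold 3 were higher and 35 lower (35.7% and 28.7% of all genes). The 2 tables were made separately, and a gene that 1 table does not list was set to 0 there. In fixed cells 14 were higher and 68 lower (53.3% and 46.7% of all genes), and by 1.5-fold 3 were higher and 40 lower (35.2% and 28.8%). The median log2 ratio of the 77 members was -0.50 in live and -0.59 in fixed cells, against 0.02 and 0.05 for other genes at 100 TPM or more. As a percent of TPM outside ribosomal RNA the pool of live HepG2-labelled cells lay below that of every live HCT-116 cell in 57 of 68 cells.

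Shares of the pool differed between lines for many members. In live cells 32 of 82 shares differed by at least 1.5-fold, 10 higher and 22 lower in the HepG2-labelled line, and in fixed cells 32 of 82, 11 higher and 21 lower. Relative to the pool, 68% of all genes and 56.3% of genes at 100 TPM or more passed that size in live cells, and 67.6% and 57.4% in fixed cells. By direction, 47.9% of all genes were higher and 20.1% lower relative to the pool in live cells, and 47.7% and 19.9% in fixed cells. Other genes carry the difference of the pool itself in these rates, as in the comparison of fixed with live cells.

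RPS27, a small-subunit protein with a zinc finger, was the non-paralog with the highest ratio of live HepG2-labelled to live HCT-116 cells. It ranged from 1519 to 7091 TPM over live HCT-116 cells (median 3401) and from 2519 to 15458 TPM over live HepG2-labelled cells (median 6265), a log2 ratio of means of 0.89. The ranges overlapped, but 65 of 68 HepG2-labelled cells exceeded the HCT-116 median. The cell at 15458 TPM is the column that was also listed among the fixed cells. In fixed cells the medians were 4745 and 6986 TPM, a log2 ratio of 0.60. RPL36A followed, with medians of 357 TPM in live HCT-116 and 630 TPM in live HepG2-labelled cells, and RPS29 with 1897 and 2391 TPM.

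The lowest ratios belonged to RPL22L1, RPS2, RPL23, RPL19 and RPL17. RPL23 ranged from 485 to 2718 TPM over live HCT-116 cells (median 1617) and from 212 to 1156 TPM over live HepG2-labelled cells (median 508). Every live HepG2-labelled cell lay below the HCT-116 median, and the log2 ratio was -1.65 in live and -1.68 in fixed cells. RPS2 had -1.65 live and -1.18 fixed, RPL19 had -1.50 and -1.47, and RPL17 had -1.50 and -1.41. For RPL19 and RPL17, too, 0 of 68 live HepG2-labelled cells exceeded the live HCT-116 median.

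The large subunit made up a larger part of the pool in HCT-116. Single abundant members weigh on this sum. RPS27 alone had means of 3447 TPM in live HCT-116 and 6383 TPM in live HepG2-labelled cells, and so carries part of the line difference. Per cell, the summed large over the summed small subunit TPM ranged from 1.22 to 1.57 in live HCT-116 cells (median 1.42) and from 1.27 to 1.54 in fixed ones (median 1.43). In HepG2-labelled cells it ranged from 1.03 to 1.37 live (median 1.196) and from 1.03 to 1.45 fixed (median 1.26). The ranges of the 2 lines overlapped, but 0 of 68 live HepG2-labelled cells exceeded the live HCT-116 median, and 43 of 68 lay below every live HCT-116 cell. Between fixed and live cells of 1 line the mean moved from 1.41 ± 0.06 to 1.43 ± 0.05 in HCT-116 and from 1.199 ± 0.08 to 1.25 ± 0.07 in the HepG2-labelled cells. Above the live median lay 49 of 92 fixed HCT-116 cells and 68 of 83 fixed HepG2-labelled cells.

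The members included more large-subunit than small-subunit genes. Without paralogs, the median member of the large subunit stood at 0.967 of the median small-subunit member in live HCT-116 cells and 1.01 in fixed ones, and at 0.811 and 0.831 in live and fixed HepG2-labelled cells, so the line difference held per member. On the CPM scale, where length is not divided out, the summed ratio was 1.72 ± 0.09 and 1.73 ± 0.07 in HCT-116 and 1.59 ± 0.10 and 1.59 ± 0.09 in the HepG2-labelled cells. The difference between lines was kept on that scale, and the difference between live and fixed HepG2-labelled cells was not. Over cells, the summed levels of the 2 subunits had Spearman correlations of 0.91 to 0.96 in the 4 groups.

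Among the paralogs, RPL39L and RPL22L1 differed most between the lines. RPL39L, a relative of the small tunnel protein RPL39, was above 0 in 4 of 91 live and 7 of 92 fixed HCT-116 cells, with a highest value of 2.23 TPM. In HepG2-labelled cells it was above 0 in 65 of 68 live cells, up to 157.9 TPM (median 43.9), and in 78 of 83 fixed cells, up to 124.03 TPM (median 46.6). It supplied 2.27% of RPL39 plus RPL39L in live and 1.98% in fixed HepG2-labelled cells. RPL39 itself had medians of 1621 and 1814 TPM in live HCT-116 and HepG2-labelled cells.

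RPL22L1 showed the opposite line difference. It ranged from 5.15 to 226 TPM over live HCT-116 cells (median 129.3) and from 17.9 to 423 TPM over fixed ones (median 192.5). In HepG2-labelled cells it ranged from 0 to 57.8 TPM live (median 17.9) and from 0.527 to 72.7 TPM fixed (median 15.3). As a share of RPL22 plus RPL22L1 it was 49.9% live and 49.4% fixed in HCT-116, and 24.7% live and 18.2% fixed in the HepG2-labelled line. It exceeded RPL22 in 46 of 91 live HCT-116 cells and in 3 of 68 live HepG2-labelled cells.

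**Figure D4:**
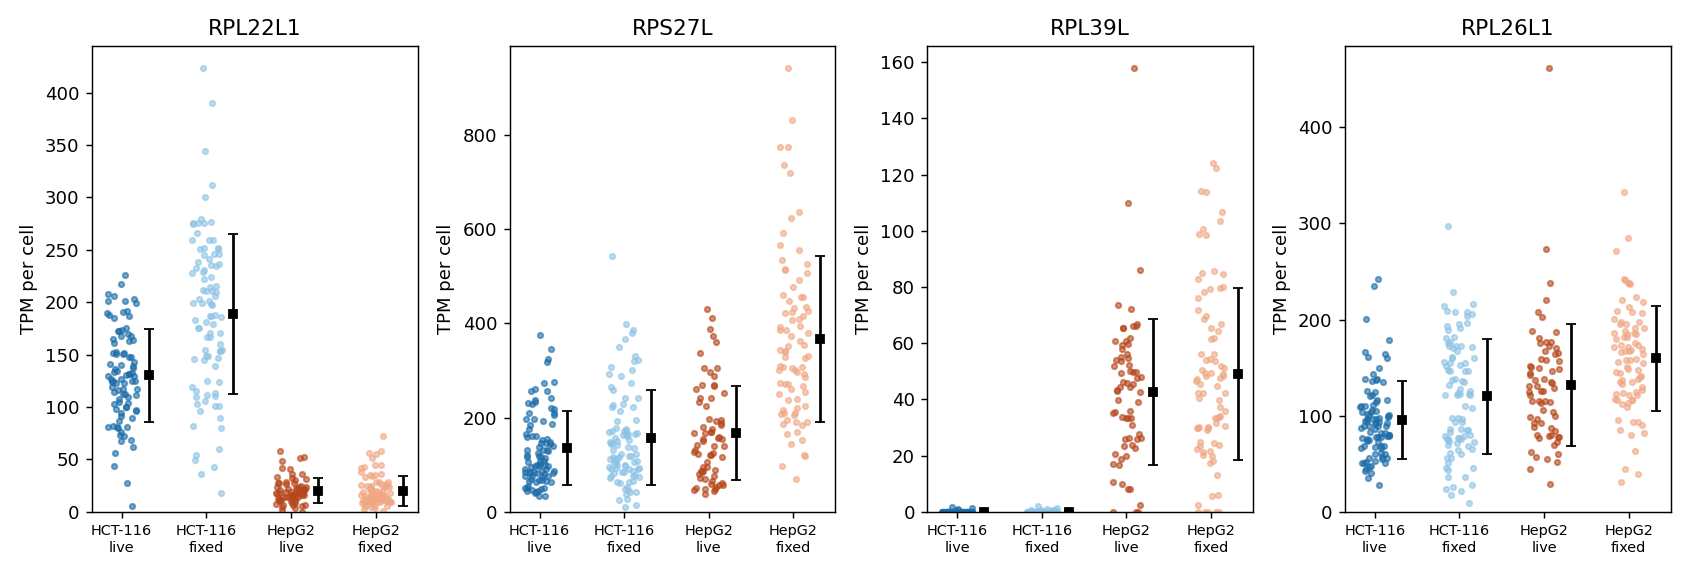
TPM per cell of 4 paralogs in the 4 groups, each point 1 cell, with the mean and SD over cells as black squares and bars. RPL22L1 is high in HCT-116, RPL39L is near 0 in HCT-116 and up to 157.9 TPM in HepG2-labelled cells, and RPS27L is highest in fixed HepG2-labelled cells.

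RPS27L, a copy of RPS27 that is known as a target of p53, was the only member whose share of the pool changed by 1.5-fold with fixation, and it did so in 1 line. It ranged from 37.99 to 430 TPM over live HepG2-labelled cells (median 152.4) and from 70.4 to 943 TPM over fixed ones (median 338). The ranges overlapped, with 78 of 83 fixed cells above the live median, and the ratio of means was 2.19 (log2 1.13). In HCT-116 it ranged from 33.8 to 376 TPM live (median 115.4) and from 9.80 to 544 TPM fixed (median 133.6), a log2 ratio of 0.21 that turned to -0.10 without ribosomal RNA. Its share of RPS27 plus RPS27L went from 2.55% live to 4.74% fixed in HepG2-labelled cells and from 3.79% to 3.14% in HCT-116. The p53 target CDKN1A, named after its values were seen, had medians of 8.88 TPM live and 25.4 TPM fixed in the HepG2-labelled line, with single cells up to 196.7 and 565 TPM. In HCT-116 its medians were 26.6 TPM live and 22.2 TPM fixed, with single cells up to 1441 and 1540 TPM. MDM2, another p53 target, had means of 7.56 ± 5.02 and 12.9 ± 14.5 TPM in live and fixed HepG2-labelled cells and 6.68 ± 4.26 and 6.88 ± 6.04 TPM in HCT-116. The part of either in the result was not tested.

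RPL26L1 supplied 6.66% and 6.27% of RPL26 plus RPL26L1 in live and fixed HCT-116 cells and 16.8% and 15.9% in live and fixed HepG2-labelled cells. Its means were 95.4 ± 40.5 and 120 ± 59.5 TPM in HCT-116 and 131.8 ± 63.6 and 160 ± 54.4 TPM in the HepG2-labelled cells, and RPL26 was lower in the second line (652 TPM live, against 1337 TPM in HCT-116). RPL7L1, which is known for a role in ribosome assembly, varied little between groups in TPM, with means of 36.1 to 40.1. In CPM it varied more, with means of 20.2 and 31.4 in live and fixed HCT-116 cells. In live and fixed HepG2-labelled cells these were 15.2 and 18.2. RPL3L, known from muscle, and RPL10L, known from testis, had means of at most 0.151 TPM in each group. RPL10L was above 0 in 1 live HCT-116 cell, 2 live HepG2-labelled cells and 0 fixed cells.

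Transcript shares were compared for the 41 members with at least 2 curated RefSeq transcripts. The leading transcript differed between groups in RPL7L1 only, and a share moved by 20 percentage points or more in 3 of the 41, RPL7L1, RPS24 and RPL22L1. RPS24, a protein of the small subunit, had the clearest pattern. Its transcript NM_001142282.1 held 0 to 6.28% of the RPS24 CPM over live HCT-116 cells (median 0) and 0 to 5.22% over fixed ones (median 0). In HepG2-labelled cells it held 0.750 to 62.9% live (median 20.8) and 1.66 to 63.5% fixed (median 27.4). It exceeded 10% in 0 of 91 live and 0 of 92 fixed HCT-116 cells, in 53 of 68 live and in 78 of 83 fixed HepG2-labelled cells. The leading transcript, NM_001026.4, held 78.99% and 77.6% of the mean in live and fixed HCT-116 cells and 60.1% and 48.8% in live and fixed HepG2-labelled cells.

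In RPL22L1 the noncoding transcript NR_135259.1 held 7.07% and 3.59% of the mean in live and fixed HCT-116 cells and 27.5% and 30.1% in live and fixed HepG2-labelled cells. The mean CPM of that transcript was close in all 4 groups, at 12.6, 10.1, 9.23 and 9.79, while the coding transcript NM_001099645.1 went from 147.6 and 241 CPM in HCT-116 to 21.2 and 19.7 CPM. In RPL7L1, whose summed CPM was 15.2 to 31.4, the SD over cells of the leading share was 38.2 to 40.4 percentage points, so the shares of this gene are imprecise.

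The members varied less between cells than other genes of their level. The median coefficient of variation (CV) of TPM over cells of the 77 members was 0.202 live and 0.223 fixed in HCT-116, and 0.248 live and 0.257 fixed in the HepG2-labelled line. Other genes with a mean within 1.5-fold of the member had median CVs of 0.280, 0.324, 0.345 and 0.307 in the same order, and 77, 72, 77 and 67 of the 77 members lay below their own such set. The sets were small, with a median of 25 to 51 genes. The median CV of a member's share of the pool was 0.162, 0.171, 0.181 and 0.183, smaller than that of its TPM.

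**Figure D5:**
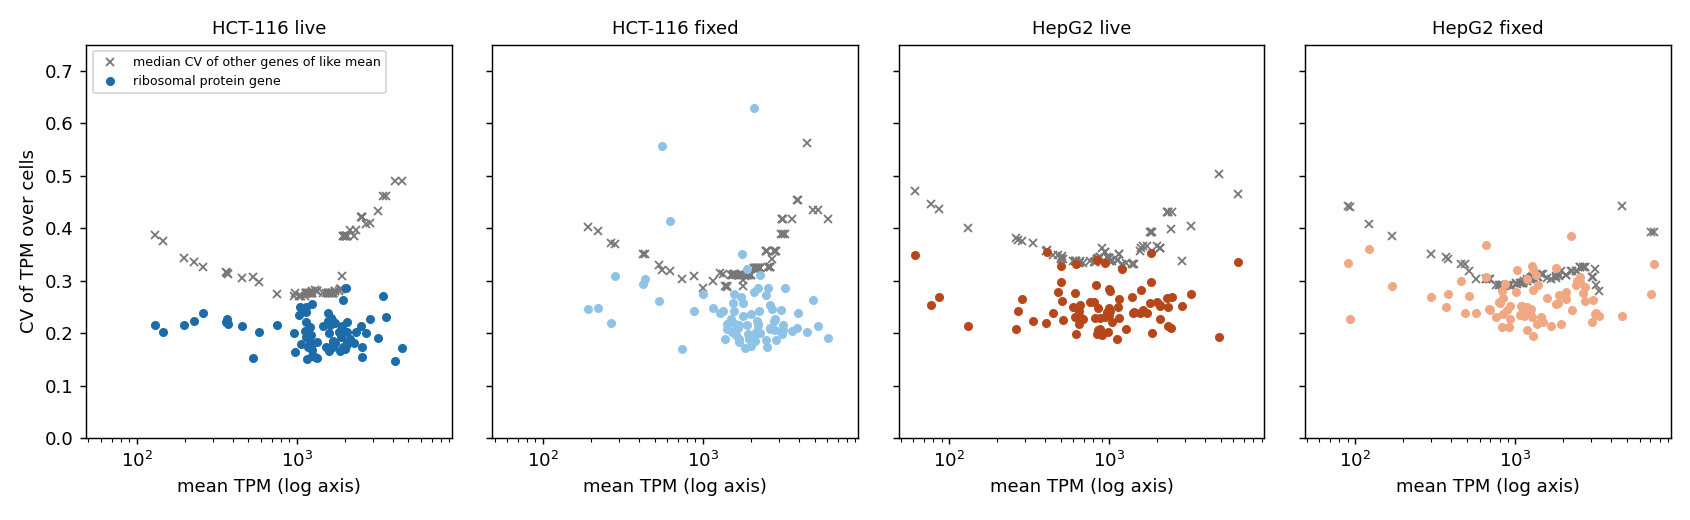
CV of TPM over cells against mean TPM (log axis) for the 77 members without paralogs in each group, with grey crosses for the median CV of other genes of like mean. The members lie below the crosses in nearly all cases, and RPL39 and RPL36A stand above in fixed HCT-116 cells.

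Members rose and fell together from cell to cell. Of 2926 pairs of members, 97.3% to 99.7% had a positive Spearman correlation over the cells of a group, with medians of 0.35 and 0.46 in live and fixed HCT-116 cells and 0.44 and 0.42 in live and fixed HepG2-labelled cells. The CV of the pool was 4.39 to 5.23 times what members varying independently would give. Pairs within the large subunit, within the small subunit and between them had medians of 0.35, 0.35 and 0.34 in live HCT-116 cells. All these points share the scaling of the cell.

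The pool's share of TPM outside ribosomal RNA went with other TOP genes across cells, with Spearman correlations of 0.61 and 0.67 in live and fixed HCT-116 cells and 0.82 and 0.79 in live and fixed HepG2-labelled cells. With EEF1A1, a TOP gene for the elongation factor that brings tRNAs, it was 0.32 and 0.59, then 0.80 and 0.70. Ribosomal genes outside the symbol rule varied. RACK1 had 0.48 and 0.37, then 0.40 and 0.58. FAU had 0.16 and 0.24, then -0.06 and 0.29, and RPL36AL 0.02 and 0.24, then -0.01 and 0.09. Mitochondrial ribosomal protein genes had 0.09 and -0.06, then -0.28 and 0.09. With mitotic genes the correlation was -0.12 and -0.38, then -0.49 and -0.29. In fixed HCT-116 cells the share also had correlations of -0.48 with total reads and -0.51 with genes detected, and the part of depth in the other correlations was not tested there.

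Members differed in how steady their share was. The smallest CVs of the share were 0.107 for RPS6 among fixed HCT-116 cells, and 0.128 for RPL41 in live and 0.123 for RPL23A in fixed HepG2-labelled cells. RPS6, whose phosphorylation is a common readout of growth signaling, had a mean share of 1.67% live and 1.92% fixed in HCT-116. The largest CVs were those of paralogs, 0.588 for RPS27L in live HCT-116 and 0.704 for RPL39L in fixed HepG2-labelled cells.

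Single cells accounted for the extremes of some members. In fixed HCT-116, 1 cell held the lowest value of 76 of the 77 members, with a pool of 32344 TPM, where the next lowest cell had 118190. All 77 members lay below the group median there, at a median of 0.200 of it, and the large to small ratio was 1.42, close to the mean. That cell had 8504 detected genes and 62.1% of its reads in listed transcripts. Another fixed HCT-116 cell held 13602 TPM of RPL39, against 4221 TPM in the next highest cell, and 3103 TPM of RPL36A, against 1096. Without the highest cell the CV of RPL39 there was 0.268 in place of 0.630, and that of RPL36A 0.299 in place of 0.558. A highest value over 3 times the median occurred for 6 of 77 members in fixed HCT-116 and 2 in fixed HepG2-labelled cells, and for 0 in either live group.

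Other genes of the cytosolic ribosome that the symbol rule does not take had levels within the range of the members. For comparison, the median large-subunit and small-subunit members stood at means of 1472 and 1527 TPM in live HCT-116 cells. In live HepG2-labelled cells they stood at 864 and 1069 TPM. FAU, which encodes RPS30 fused to a ubiquitin-like protein, had means of 1149 TPM live and 1289 TPM fixed in HCT-116, and 1156 TPM live and 1374 TPM fixed in the HepG2-labelled line. RACK1, a scaffold on the small subunit, had 1225 and 1523, then 992 and 1265 TPM. RPL36AL, a retained copy of RPL36A, had 415 and 563, then 597 and 875 TPM. All 3 were higher in fixed cells of both lines on the deposited scale, by 0.17 to 0.55 on the log2 scale. Without ribosomal RNA the ratio of FAU in HCT-116 turned to -0.14, and that of RACK1 there was 0.0049.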

How the data were processed

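Single cells were sequenced with a full-length cDNA method (Smart-seq2) in 346 labelled samples, each 1 cell, of which 334 had a column in the tables and 12 were not analysed here. As the methods of the study state, the authors mapped reads to the ENSEMBL human reference GRCh38 with kallisto and gathered the cells with tximport. The submitters' processing notes name kallisto 0.46.0, and the transcripts in the tables carry RefSeq identifiers. The deposited gene tables hold TPM per gene and cell, made by the authors from those estimates. The deposited transcript tables were made by the authors from the same run and are named TPM, but they hold CPM: over 2887 genes with 1 listed transcript the ratio to gene TPM rose with length (Spearman 0.80 in live HCT-116 cells). Sequencing depth of a cell was estimated as the total, in steps of 0.1 M reads, that turned most of its CPM values into whole counts. At the chosen total 18.5% to 41.4% of a cell's values above 0 were whole, so these depths are a best fit.

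From these, group means, SDs over cells, log2 ratios of means, pool shares, CVs and paralog and transcript shares were computed with Python 3.11.15, numpy 2.4.6, pandas 2.3.3 and scipy 1.17.1. Means are over all cells of a group, with 0 where a table does not list a gene. Genes were compared for a 1.5-fold difference at a mean of 1 TPM or more in either group. Each line and treatment is 1 sample, so no p-value was computed. The calculation was tested on simulated data.

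Named genes are the 5 members with the highest and lowest level, and, at a mean of 10 TPM or more, the 5 highest and lowest ratios in each line and between live lines and the 3 highest and lowest CVs of the pool share, plus the paralogs with their counterparts, the stalk genes, RPL5, RPL11 and ribosomal genes outside the symbol rule. Of these, 1 member and 1 gene outside the rule are not reported here. The members, lists and rules were chosen with earlier results of these data known. The other-TOP list held 17 genes, the mitotic list served one correlation, and lists of assembly factors, RNA polymerase I, intestinal and blood genes are reported with the closing observations. Promoters were read from a RefSeq table (GRCh38.p14), lengths and GC content from GENCODE v44 reference transcripts. Alternatives changed the scaling, the pseudocount, the filter, the cells, the members and the summary of a subunit.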

Additional observations from a re-analysis of the deposited data

Results flagged for a closer look

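RPS2 and RPL22L1 were the members at 10 TPM or more whose mean TPM was higher in fixed cells of one line and lower in fixed cells of the other. RPS2 had a log2 ratio of fixed to live of -0.067 in HCT-116 and 0.40 in the HepG2-labelled line. Its HCT-116 means, 1575 TPM live and 1503 TPM fixed, differed by less than the spread between cells (CVs of 0.224 and 0.228). In CPM its HCT-116 mean was higher in fixed cells, at 965 ± 226 against 899 ± 212 live. The summed CPM of all members rose there too, from 47463 ± 6522 live to 72782 ± 13667 fixed. Among the members without paralogs RPS2 went from rank 15 live to rank 28 fixed by CPM. Relative to the other members it was thus lower in fixed cells on this scale as well. RPL22L1 had 0.54 in HCT-116 and -0.016 in the HepG2-labelled line, where its live mean was 20.2 ± 12.2 TPM and its fixed mean 20.02 ± 14.2 TPM (SD over cells), a difference smaller than the spread between cells. Each line and treatment is 1 sample, so the difference between lines was not tested for either gene.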

How the results depend on the processing

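No paired analysis was possible because each line and treatment is 1 sample, the result comes from no test, and the columns carry no culture number. With ribosomal RNA left out, the HCT-116 fixed-to-live log2 ratio of the pool was 0.093, the median over members 0.11, and 0 members were 1.5-fold higher (10 as deposited), while the median over members in the HepG2-labelled line was 0.20. With median-ratio rescaling, 0 members were 1.5-fold higher in HCT-116 and 1 in the HepG2-labelled line, where the median was 0.13. Means of log2(TPM + 1) or log2(TPM + 0.1) left 6 such members in HCT-116, and cells paired on total reads left 2. With no filter, 1 member was 1.5-fold lower in fixed HepG2-labelled cells and 5 were higher in live HepG2-labelled than in live HCT-116 cells. With medians over cells, 2 pool shares changed 1.5-fold with fixation in the HepG2-labelled line, and without paralogs 1 member was 1.5-fold higher in fixed HepG2-labelled than in fixed HCT-116 cells. The median over all members, paralogs included, in place of the sum gave large to small ratios of 0.90 live and 0.95 fixed in HCT-116, and 0.76 live and 0.78 fixed in the HepG2-labelled line, and CPM, chosen after seeing the data, gave 1.72, 1.73, 1.59 and 1.59. The SD of log2(TPM + 1) over cells had medians over members of 0.298, 0.407, 0.383 and 0.375. The direction reversed for RPS27L in HCT-116 without ribosomal RNA (-0.10), for RPL22L1 in the HepG2-labelled line in paired cells (0.17), for RPS27 there with median-ratio rescaling (-0.013), and for RPL21 between lines, with -0.033 live and -0.0058 fixed without ribosomal RNA and -0.0056 fixed in paired cells. The causes were not tested. Leaving out the equal columns, the very similar columns or the fixed HCT-116 cell with the lowest pool (the last chosen after seeing the data) reversed no direction and moved no value by more than the spread. Read counts behind single TPM values were not computed.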

Other observations

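Of 20 ribosome assembly factors, 12 were higher and 8 lower in fixed HCT-116 cells on the deposited scale, and 11 and 9 in the HepG2-labelled line. By 1.5-fold, 1 was higher and 5 lower in HCT-116 (13.3% and 17.8% of all genes). In the HepG2-labelled line 1 was higher and 6 lower by that size (16.5% and 19.4% of all genes). Of all genes 60.4% were higher in HCT-116 and 58.8% in the HepG2-labelled line. Of 14 RNA polymerase I genes, 10 were higher and 4 lower in each line. The 77 mitochondrial ribosomal protein genes had median log2 ratios of 0.32 in HCT-116 and 0.37 in the HepG2-labelled line, with 67 and 71 higher. Of 17 other TOP genes, 15 were higher in each line. These are values of single samples with no test.

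Ribosomal protein pseudogenes, of which 31 were listed in live HCT-116 cells, summed to 49.1 ± 21.2 TPM there and 61.98 ± 25.8 TPM in fixed ones, and to 71.5 ± 20.7 TPM live and 73.7 ± 26.5 TPM fixed in the HepG2-labelled line. This was 0.039% to 0.077% of the pool in the 4 groups. Reads shared by a member and its near-identical pseudogene copies cannot be separated here, so small differences of members with many copies are uncertain.

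The 4 X-linked members, RPL10, RPL36A, RPL39 and RPS4X, all had a larger share of the pool in live HepG2-labelled than in live HCT-116 cells, with log2 ratios from 0.10 to 1.14. All 3 members on chromosome 15 had a share there that was larger by only 0.011 to 0.18 on the log2 scale (median 0.023). All 3 on chromosome 4 had a smaller share, with log2 ratios from -0.40 to -0.07. Of the 21 chromosomes with members, the median ratio was -0.69 on chromosome 1, -0.64 on chromosome 17, -0.62 on chromosome 3 and 0.44 on chromosome 5, and members of chromosome 1 ran from -1.01 to 1.27. The grouping by chromosome was made after the values were seen. Among intestinal markers, 6 of 10 were listed in HCT-116 and 2, CDX2 and EPCAM, exceeded 1 TPM in at least 50% of its live cells, and 0 of 7 blood markers did in any group.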
